A study of Oryza sativa with 2 samples.

Results

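The genes described here are those of rice whose symbol or synonym in the gene table is ICL, MS, PLD2 or PXG: isocitrate lyase and malate synthase of the glyoxylate cycle, a phospholipase D, and a peroxygenase. The rule found 4 genes among the 17905 that the platform annotation pairs singly with probe sets, and each was read by 1 probe set of the 57381 on the array. They were selected on the difference in signal between these same arrays, as genes higher in yellow tips, so the differences between the arrays are given as a description and no test bears on them.

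Total RNA from leaves of rice recombinant inbred lines, lines fixed by repeated inbreeding after a cross, was hybridized as biotin-labelled cRNA to single-colour oligonucleotide arrays. The yellow leaf tip group (yellow tips below) is the line set named F9Y, called mutant in its label, with yellow leaf tips in the vegetative stage. The green group (green leaves below) is the line set named F9G, called normal green, with green leaf tips in the vegetative stage. Each group had 1 array, in a study of the early-senescing mutant SA0420. For both arrays the titles speak of leaves and the descriptions of leaf tips, which leaves the sampled part unclear. The short names yellow tips and green leaves therefore do not mean that different parts were sampled. The labels give neither the number of plants nor that of lines behind each RNA. Without replicates, every difference below compares 2 arrays and not 2 conditions.

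The glyoxylate cycle lets plants turn the acetyl-CoA released by fatty acid breakdown into organic acids and, further on, sugars. Isocitrate lyase splits isocitrate into succinate and glyoxylate, and malate synthase joins glyoxylate with acetyl-CoA to give malate. Both enzymes are best known from oil-storing seedlings and are also described in senescing leaves, where membrane lipids are taken apart. Phospholipase D removes the head group of phospholipids and leaves phosphatidic acid. Peroxygenases of the caleosin family sit on oil bodies, bind calcium and oxidize unsaturated fatty acids with hydroperoxides.

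Signals are the deposited intensities on a linear scale. Differences are log2 of signal plus a pseudocount of 22.6, yellow leaf tip minus green, centred on the median of the kept probe sets, and a size of at least 1 was counted as a 2-fold difference. Probe sets were kept where the mean signal of both arrays reached 86.0. Against this background, 819 of the 14697 kept genes (5.57%) reached the 2-fold threshold upward in yellow tips and 468 (3.18%) downward. All 4 members passed the filter and all 4 reached it upward, a count fixed by how they were chosen. When the differences were centred on the E. coli and phage P1 control probe sets instead, a shift of 0.19, the counts over all kept genes became 572 higher and 798 lower, and PLD2 had a difference of 0.97, below the threshold.

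Of the glyoxylate cycle enzymes, ICL (LOC4343441) had a signal of 272 in yellow tips and 53.1 in green leaves, a ratio of 5.12. The log2 difference was 2.01. The green signal was low: 11 of the 42 Bacillus subtilis control probe sets and 17 of the 64 reporter probe sets, named for bacterial or reporter sequences and not for rice genes, were at or above it on that array. On the yellow leaf tip array none of either kind reached the signal of ICL. The transcript was therefore read above these probe sets in yellow tips, while in green leaves its signal lay within their range and the size of the difference depends on the pseudocount. ICL also passed the filter through its signal in yellow tips, since its green signal alone was below 86.0.

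MS (LOC9268154) had 776 in yellow tips and 123 in green leaves, a ratio of 6.31 and a log2 difference of 2.51. Its green signal was above all 42 Bacillus subtilis control probe sets, but 3 of the 64 reporter probe sets lay at or above it. The log2 differences of MS and ICL, whose shared direction follows from how they were chosen, lay 0.50 apart. This gap is smaller than the spread expected between their probe sets, 0.62 (combined SD), so ICL and MS cannot be put in order.

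**Figure D1:**
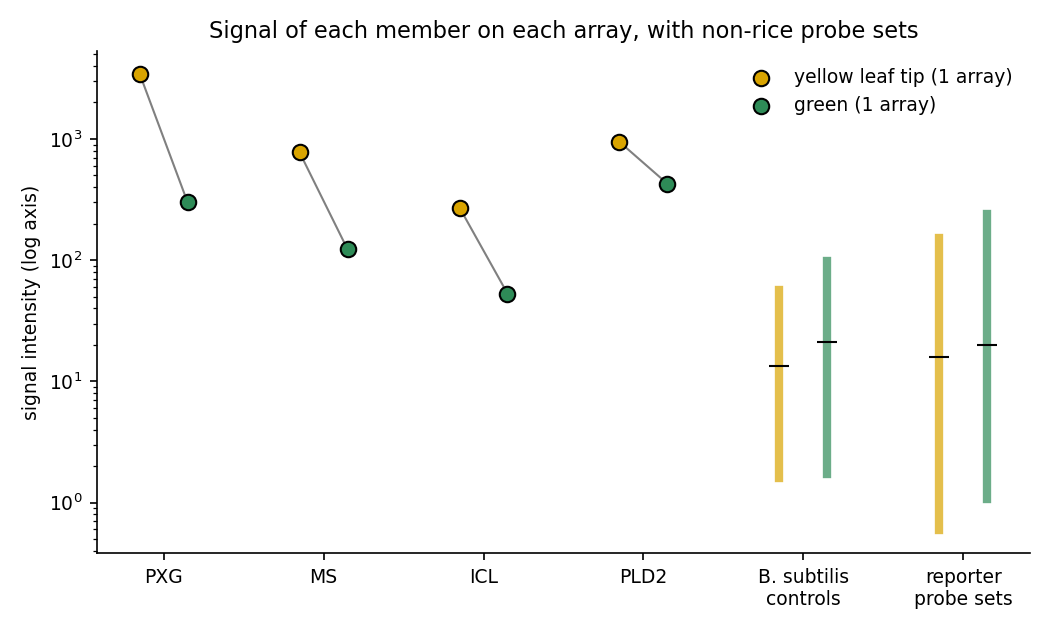
Signal intensity (log axis) of PXG, MS, ICL and PLD2 in yellow tips (yellow points) and green leaves (green points), 1 array each, beside the range (bars) and median (black dashes) of 42 Bacillus subtilis control and 64 reporter probe sets. Every gene is higher on the yellow leaf tip array, and ICL in green leaves, at 53.1, lies within the range of the control probe sets.

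Of the genes of lipid turnover, PXG (LOC4336376) had 3463 in yellow tips and 301 in green leaves, a ratio of 11.5 and a log2 difference of 3.48. Both signals lay above every Bacillus subtilis control and reporter probe set of their array. Of the 14697 kept genes, 19 (0.129%), PXG included, had a difference at least as large, and 3 of the 2033 kept genes with a name did. Kept probe sets were also divided by mean signal into 5 bands of equal size. Among the 5726 probe sets of the brightest band, where PXG falls, 9 reached its difference. This band starts at a mean signal of 1739, so PXG is in it only through its signal in yellow tips. The count is therefore not independent of how PXG was chosen.

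PLD2 (LOC4341469) had 946 in yellow tips and 427 in green leaves, a ratio of 2.22 and a log2 difference of 1.16. Both signals were above all control and reporter probe sets. Its difference was the smallest of the 4 members: 611 kept genes (4.16%) had a difference at least as large, against 75 (0.510%) for MS and 161 (1.10%) for ICL.

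The only error that these arrays allow is the disagreement between probe sets of the same gene. It was 0.46 (pooled SD of the log2 difference, 2215 genes with several kept probe sets), and it fell with signal. Taken over genes with several probe sets in the same band of mean signal, it was 0.52 for the band that holds ICL (139 genes), 0.34 for that of MS (174 genes), 0.30 for that of PLD2 (195 genes) and 0.22 for that of PXG (309 genes). This spread covers probes and not plants, RNA extractions or arrays. The bands use the mean of both arrays, so the high signal of a member in yellow tips helps to set its spread. The green signals alone, 301 for PXG and 123 for MS, lie in bands with a spread of 0.34 and 0.77. With the bands of mean signal, PXG lay 0.97 above MS, more than their combined SD of 0.40. ICL lay 0.85 above PLD2, beside a combined SD of 0.60. With the pseudocount at the 50th percentile of all values, ICL had 1.39 and PLD2 1.05, a gap of 0.34, so with the green signal of ICL within the control range these genes cannot be put in order by size. The order PXG, MS, ICL, PLD2 was the same under the 9 other settings in which all 4 genes were kept. Most of these could not change it. With 1 probe set per member, settings of centring, filter or choice of probe sets shift all 4 genes alike. Only quantile normalization, loess and the pseudocount settings could alter the order. The gaps on either side of ICL were within the combined probe spread as reported or with the larger pseudocount.

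The E. coli and phage P1 control probe sets, with signals of 422 to 38831 in yellow tips and 283 to 39721 in green leaves, give a further view of the difference between the arrays. Their 27 log2 differences ran from -0.43 to 0.86 with a median of 0.19 and an SD of 0.29, and none reached 2-fold. The sources used here do not state whether equal amounts of these controls were added. The dim Bacillus subtilis control probe sets had differences from -1.63 to 1.55 and the reporter probe sets from -1.73 to 1.92, ranges that come close to the 2.01 of ICL. The difference of PLD2 also lies within these ranges, but its signals were above those of all these probe sets, so the comparison is not at a like signal.

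**Figure D2:**
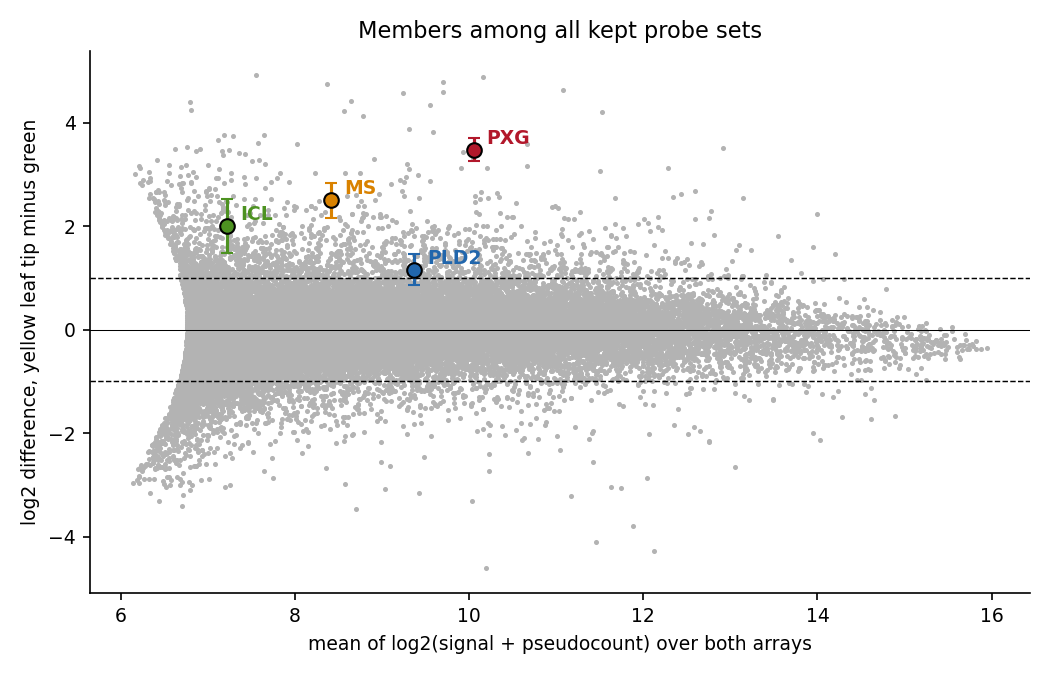
Log2 difference (yellow leaf tip minus green) of all 28629 kept probe sets (grey) against the mean of log2(signal + pseudocount) over both arrays, with the 4 members in colour and dashed lines at a size of 1. Error bars are the pooled SD between probe sets of the same gene in the member's band of signal. PXG stands at 3.48, and PLD2 at 1.16, where its bar crosses the line.

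Of the photosynthesis genes chosen as leaf markers, 7 of 8 had kept probe sets, and the list had a median signal of 20595 in yellow tips and 24319 in green leaves over 16 probe sets of 8 genes, and a summed signal of 328897 in yellow tips and 415330 in green leaves. Dim exceptions were RBCS1, below the filter at 32.7 in yellow tips and 8.45 in green leaves, and 1 of the 4 probe sets of rbcS. That rbcS probe set had 70.1 in yellow tips and 187 in green leaves (-1.12), the only leaf marker probe set past the threshold downward. A further dim exception was 1 probe set of PSAG, at 228 in yellow tips and 94.1 in green leaves (1.16), the only leaf marker probe set past the threshold upward. The other probe set of PSAG had 1861 in yellow tips and 2111 in green leaves (-0.13). Seed storage protein genes (glutelins and prolamin) had a median of 22.3 in yellow tips and 76.1 in green leaves over 9 probe sets of 7 genes. The bright exception was 1 probe set of GLUA-2, at 822 in yellow tips and 1186 in green leaves. Their summed signal was 1058 in yellow tips and 1733 in green leaves, most of it from that probe set. None of their 3 kept probe sets reached 2-fold upward, and 1 did so downward. This was GLUB-4, at 22.3 in yellow tips and 186 in green leaves (-2.17). These genes are not markers of oil bodies. The anther genes RTS and C6 had 12.5 and 59.0 in yellow tips and 52.5 and 128 in green leaves. As a sign of RNA quality, the ratio of 3′ to 5′ signal of 7 rice housekeeping control pairs had a median of 2.48 in yellow tips and 2.40 in green leaves. It was higher in yellow tips for 5 of the 7 pairs, and it ranged from 0.62 to 4.81 in yellow tips and from 0.10 to 11.5 in green leaves. Both ends of the green range came from dim pairs, with signals within the range of the reporter probe sets. These were ef1a (23.8 at the 3′ end and 237 at the 5′ end) and 1 gapdh pair (193 and 16.8). The part of RNA quality in the members' differences was not tested. In RNA from a mixture of leaf cells, fewer cells of a type and less RNA per cell cannot be told apart.

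Further genes around the glyoxylate cycle, gluconeogenesis and lipid turnover came from lists matched by symbol. The lists name 35 genes, 30 of them on the array and 24 kept. They cover these pathways only in part. Besides MS and ICL, the glyoxylate cycle list held only genes of NADP-malic enzymes and pyruvate orthophosphate dikinases, and no further enzyme of the cycle. In the beta-oxidation list only MFP and PEX11 genes were measured. Apart from the 4 members, 20 genes were kept. Of these, 1 reached the threshold upward in yellow tips and none downward, which is close to the background of 5.57% and 3.18%. Their median log2 difference was 0.06, beside 0.08 over all kept genes, and 10 of the 20 were above 0.

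Around the glyoxylate cycle, the 3 kept genes other than MS and ICL had differences below 0. Those of the NADP-malic enzymes, which turn malate into pyruvate, were small: NADP-ME had 1226 in yellow tips and 1336 in green leaves (-0.07), and NADP-ME2 had 14893 in yellow tips and 16181 in green leaves (-0.07). PPDKB, a pyruvate orthophosphate dikinase that makes phosphoenolpyruvate, had 3596 in yellow tips and 4977 in green leaves (-0.42). The list of 5 kept genes thus held both enzymes unique to the cycle at 2.01 and 2.51, while its median was -0.07. That median was 0.32 without a filter and 2.01 without probe sets whose name endings mark probes shared between transcripts. The 2.01 is the value of ICL itself, a member chosen for being higher. No direction can therefore be given for the list with its members, and the 3 kept genes other than members had a median of -0.07. PPDK2 was below the filter, with 37.3 in yellow tips and 17.0 in green leaves.

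In fatty acid beta-oxidation and the peroxisome, where the acetyl-CoA used by malate synthase arises, none of 4 kept genes reached 2-fold. MFP, the multifunctional protein of beta-oxidation, had 6454 in yellow tips and 5041 in green leaves (0.41). The PEX11 genes, whose products make peroxisomes divide and multiply, pointed both ways. PEX11-1 had 24874 in yellow tips and 37297 in green leaves (-0.53), and PEX11-4 had 5288 in yellow tips and 9445 in green leaves (-0.78). LOC4339973, which the gene table lists both as PEX11-2 and as PEX11-5, had 4223 in yellow tips and 3842 in green leaves (0.19). The median of this list was -0.17.

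Among phospholipases, PLD2 differed from its relative PLD1. PLD1 had 6518 in yellow tips and 7348 in green leaves (-0.12), beside the 1.16 of PLD2. PLA2-III, a phospholipase A2 gene, had 226 in yellow tips and 142 in green leaves (0.64), near the probe spread of 0.52 in its band of signal. In the list of oil body proteins and peroxygenases PXG was the only gene measured.

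The lipoxygenase pathway, which oxidizes polyunsaturated fatty acids and leads to jasmonate, held the other gene at the threshold. AOC3, which encodes allene oxide cyclase, had 5263 in yellow tips and 2695 in green leaves, a ratio of 1.95 that centring brought to a log2 difference of 1.01. LOX5 had 1424 in yellow tips and 750 in green leaves (0.95), and CM-LOX2 had 429 in yellow tips and 256 in green leaves (0.75). LOX2 had 869 in yellow tips and 720 in green leaves (0.31).

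The remaining kept genes of this pathway had lower signals in yellow tips. CM-LOX1 had 1143 in yellow tips and 1728 in green leaves (-0.54), and AOS1, an allene oxide synthase gene, had 403 in yellow tips and 503 in green leaves (-0.25). The median over the 6 kept genes was 0.53, and it was -0.05 without a filter, so the direction of this list depends on its dim members. Below the filter lay AOS2, AOS3, AOS4, LOX3, LOX1.1 and 2 further probe sets of CM-LOX2, with signals of at most 38.6 in yellow tips and 116 in green leaves. Of these, AOS2 (-1.79), AOS4 (-1.09) and 1 probe set of CM-LOX2 (-1.14) had differences below -1, on signals in yellow tips under the pseudocount.

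Genes of lipid synthesis did not reach 2-fold in either direction. SSI2, a stearoyl-acyl carrier protein desaturase gene, had 4562 in yellow tips and 7112 in green leaves (-0.59). DGAT1-1, whose enzyme makes triacylglycerol, had 2327 in yellow tips and 1849 in green leaves (0.38). The genes MGD1, MGD2 and MGD3 for monogalactosyldiacylglycerol synthases, which make the main lipid of chloroplast membranes, had differences of 0.19, -0.47 and 0.34.

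**Figure D3:**
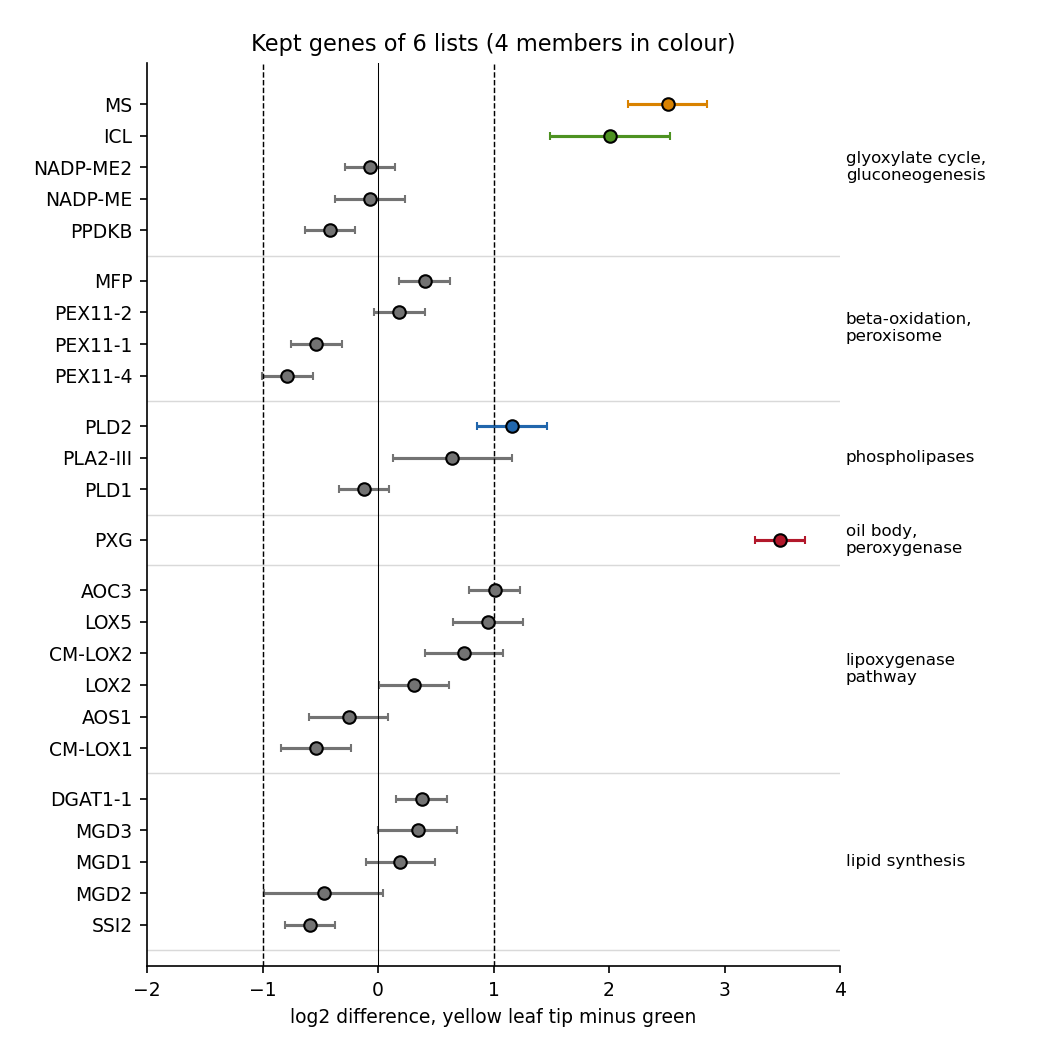
Log2 difference (yellow leaf tip minus green) of the 24 kept genes of 6 lists, members in colour and other genes in grey, with bars for the pooled SD between probe sets of the same gene in that band of signal and dashed lines at a size of 1. MS, ICL, PLD2 and PXG lie beyond the line, AOC3 lies on it at 1.01, and the other 19 genes lie between -0.78 and 0.95. The gene shown as PEX11-2 is also listed as PEX11-5.

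The named genes most like each member were taken as the 3 with the smallest distance in the pair of log2 signals, over 2 arrays and 2032 other kept genes with a name. MS was closest to BGLU22, a beta-glucosidase gene, with 681 in yellow tips and 127 in green leaves (distance 0.19), then to the protein phosphatase genes PP2C48 (0.38) and PP2C68 (0.55). ICL was closest to OPR-1, of the family of oxophytodienoate reductases, with 257 in yellow tips and 60.4 in green leaves (0.15), then to IMCEL2 (0.18) and BLE3 (0.21). IMCEL2 had 54.7 and BLE3 43.4 in green leaves. Like that of ICL, the green signals of these 3 genes were below 86.0 and within the range of the Bacillus subtilis control probe sets. Their likeness to ICL in green leaves is therefore between dim signals.

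PLD2 lay in a crowded range: GLU11, HAK23 and Lpa1 were at distances of 0.08, 0.10 and 0.16, and 35 named genes lay within 0.5 of it. For ICL 9 named genes lay within 0.5, for MS 2 and for PXG 0. The closest to PXG were the metallothionein gene MT1B (0.83), with 1972 in yellow tips and 260 in green leaves, EGY3 (0.93) and the sugar transporter gene SWEET15 (1.05). Signals depend on the probes as well as on the transcript, and with 2 arrays such likeness rests on a single pair of signals per gene.

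The 5 measured genes on each side of every member in the order of the gene table served as a local comparison, added after the members' values were known. Of these 40 neighbours, 3 reached the threshold upward in yellow tips and 2 downward, again near the background. Next to MS none of 10 reached 2-fold, and their differences ran from -0.09 to 0.71. All 3 higher neighbours lay beside ICL. LOC4343418 had 12948 in yellow tips and 1166 in green leaves (2.95), while LOC4343419 had 1.03 and LOC4343444 lay just at the threshold. Beside PXG 1 gene was lower, LOC4336366 at -1.29. Beside PLD2 1 was lower, LOC4341466 at -2.50, on a signal of 10.7 in yellow tips that is below the pseudocount.

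**Figure D4:**
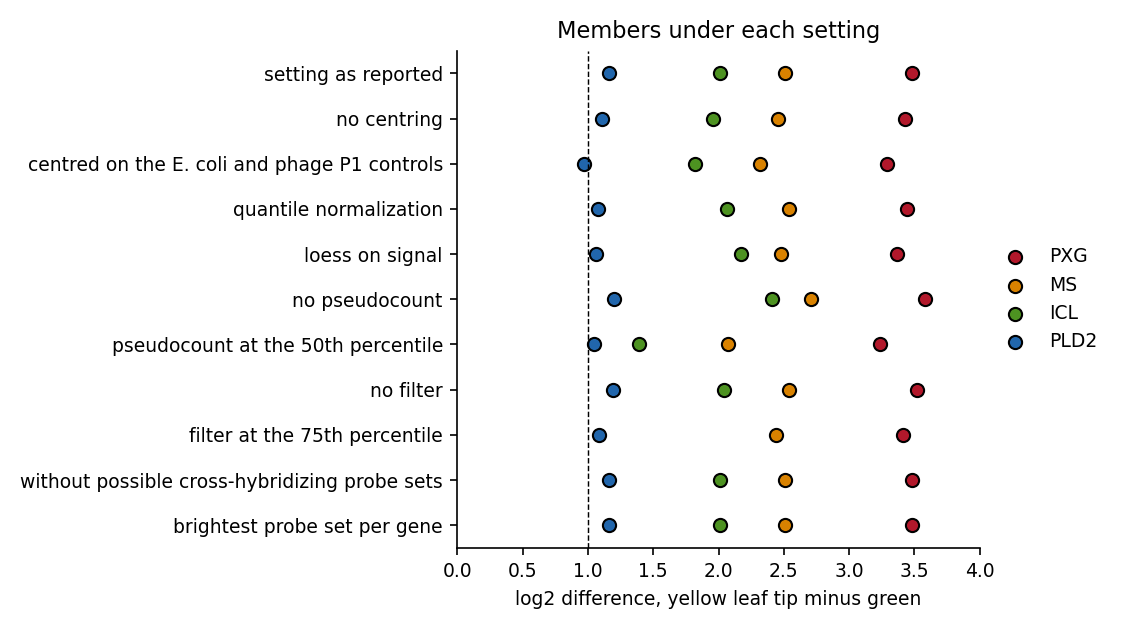
Log2 difference (yellow leaf tip minus green) of PXG, MS, ICL and PLD2 under the reported setting and 10 others, with a dashed line at 1. PXG runs from 3.23 to 3.58, MS from 2.07 to 2.71, ICL from 1.39 to 2.41 (not kept under the stricter filter) and PLD2 from 0.97 to 1.20, its lowest value when centred on the E. coli and phage P1 control probe sets.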

How the data were processed

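The deposited intensity values are linear, with 1 value for each probe set of an array; the sources used here do not state the authors' software or scaling. After the lowest and highest 2% of the deposited intensity values were left out, the mean was 500.0 on each array. The 123 probe sets whose names begin with AFFX were left out, which left 57258, of which 28629 reached the median of the mean signals. The 25th percentile of all values was the pseudocount, and the centring shift was -0.05. A gene's difference averaged those of its kept probe sets. All 17905 singly annotated genes matched by identifier in a RefSeq gene table (assembly ASM3414082v1) used for names and gene order only; 22436 probe sets had 1 gene, 95 had several and 34727 had none listed. No test was possible with 1 array in each group, and the precision is limited by the number of arrays.

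The members and lists were chosen with earlier results of these data known. Lists were matched by symbol pattern, and 5 genes matched by accident were removed because of what their symbols stand for; lists were also run with them. Named were all members, list genes past the threshold, the highest and lowest of each list and the 3 most alike named genes per member; other list genes were named too. Python 3.11.15 with numpy 2.4.6, pandas 2.3.3 and statsmodels 0.14.6 was used, and the functions were tested on simulated data. Planned motif searches and sequences were not analysed here.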

Additional observations from a re-analysis of the deposited data

How the results depend on the processing

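PXG, MS and ICL stayed above a log2 difference of 1 under every setting that kept them (10 others for PXG and MS, 9 for ICL); PLD2 did so under 9 of 10. ICL was 1.39 with the pseudocount at the 50th percentile of all values and was lost under the stricter filter (75th percentile of mean signal). The median of the glyoxylate cycle list was 2.01 without probe sets whose name endings mark probes shared between transcripts. This left fewer genes, and the median was then the value of ICL itself. The median of the lipoxygenase pathway was -0.054 without a filter, when dim genes entered. Probe sets past 2-fold numbered 1665 higher and 1800 lower as reported, 5333 and 5478 without a filter, 582 and 433 under the stricter filter, 1100 and 863 with the larger pseudocount, and 312 and 261 at a threshold of 2. Centred on the E. coli and phage P1 controls, a setting chosen after seeing the data, 1174 were higher and 2759 lower, so the higher share of calls was 29.9% instead of 48.1%. Of 108 values under other settings, 96 moved by less than the probe spread of 0.46 (counts: less than 1.5 times). Many of these could hardly move. With 1 probe set per member, taking the brightest probe set per gene left each member's value unchanged. Settings of centring, filter or shared probes shifted all members alike. The count of 96 is therefore not a measure of stability. No paired analysis was possible because each group had 1 array, and no array could be left out. In green leaves ICL was no brighter than some control probe sets, which limits the size of its difference.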
